A study of Mus musculus with 2 samples.

Results

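The 8 mouse genes that encode troponin T, troponin I and troponin C were examined in total RNA sequenced from the heart. The members were taken by gene symbol from 55536 annotated mouse genes: Tnnt2, Tnnt1 and Tnnt3 for troponin T, Tnni3, Tnni1 and Tnni2 for troponin I, and Tnnc1 and Tnnc2 for troponin C. Their annotation holds 85 of the 141864 transcripts in the transcript tables. The samples form a single group of 2 libraries from adult male B6CASTF1/J mice of 8 to 10 months, the first-generation hybrid of the C57BL/6J and CAST strains. The animals carried no transgene and received no treatment that the labels name. Replicate 1 is the animal numbered 2 and replicate 2 the animal numbered 4, while the donor entry in the labels is the same for both. With no second condition, the levels are given per library and as mean ± SD (n = 2), no p-value is printed, and the SD may hold technical as well as animal spread. Reads of both parental alleles were counted against the C57BL/6J-derived mm10 assembly, and loss of reads from the CAST allele was not analysed here.

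Troponin is the calcium switch of the striated muscle thin filament. Troponin C binds calcium, troponin I holds back the interaction of actin and myosin until calcium is bound, and troponin T anchors the complex to tropomyosin. Each subunit is encoded by paralogs named after the muscle in which they prevail: Tnnt2 and Tnni3 in the heart, Tnnt1 and Tnni1 in slow skeletal fibres, and Tnnt3, Tnni2 and Tnnc2 in fast skeletal fibres. Tnnc1 serves both the heart and slow skeletal fibres. In the developing rodent heart Tnni1 precedes Tnni3, and Tnnt2 transcripts are spliced differently in the embryo and the adult.

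The libraries held 42.05 M and 39.98 M expected counts on mouse genes. The troponin genes took 0.509% of all expected counts in replicate 1 and 0.549% in replicate 2, or 0.847% and 0.923% of all TPM, a transcript abundance scaled to length and to a fixed sum per library. Markers of the labelled tissue were present. The 3 ventricular markers summed to 7734 and 8385 TPM, led by Myl2, and the 4 atrial markers to 926 and 1080 TPM, led by Nppa. All 4 markers of fetal and neonatal skeletal muscle stayed below 1 TPM in both libraries, at summed levels of 0.09 and 0.04 TPM. The markers of endothelial cells, fibroblasts, macrophages and smooth muscle all reached 1 TPM in both libraries, beside 49.0% of 21938 nuclear protein-coding genes. In replicates 1 and 2 the list medians were 30.4 and 28.2 TPM for endothelial cells and 17.6 and 17.3 TPM for fibroblasts. They were 8.22 and 9.70 TPM for macrophages and 20.5 and 12.8 TPM for smooth muscle. Of the macrophage markers, Adgre1 had 5.73 and 3.45 TPM. In whole tissue such as this, fewer cells of a type and less RNA per cell cannot be told apart.

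Troponin T RNA came almost wholly from the cardiac gene. Tnnt2 (ENSMUSG00000026414.13, mm10 chromosome 1, 135836354 to 135852260, plus strand) had 3099 TPM in replicate 1 and 3335 TPM in replicate 2, from 105431 and 107327 reads. Tnnt1, the slow skeletal gene (ENSMUSG00000064179.13, chromosome 7, 4504570 to 4516382, minus strand), had 4.31 and 5.29 TPM. Tnnt3, the fast skeletal gene, had 2.64 and 2.51 TPM. The cardiac gene was thus far above both skeletal genes in each library, and no values overlapped. In the family's summed TPM, Tnnt2 held 99.8 ± 0.0068%, Tnnt1 0.149 ± 0.0138% and Tnnt3 0.0800 ± 0.0070%. The log2 ratio of TPM was 9.39 ± 0.13 for Tnnt2 over Tnnt1 and 10.29 ± 0.13 for Tnnt2 over Tnnt3. The skeletal genes rested on 118 and 143 reads for Tnnt1 (95% Poisson intervals 97.7 to 141 and 121 to 168) and 84 and 75 for Tnnt3. All such intervals cover counting error only.

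**Figure D1:**
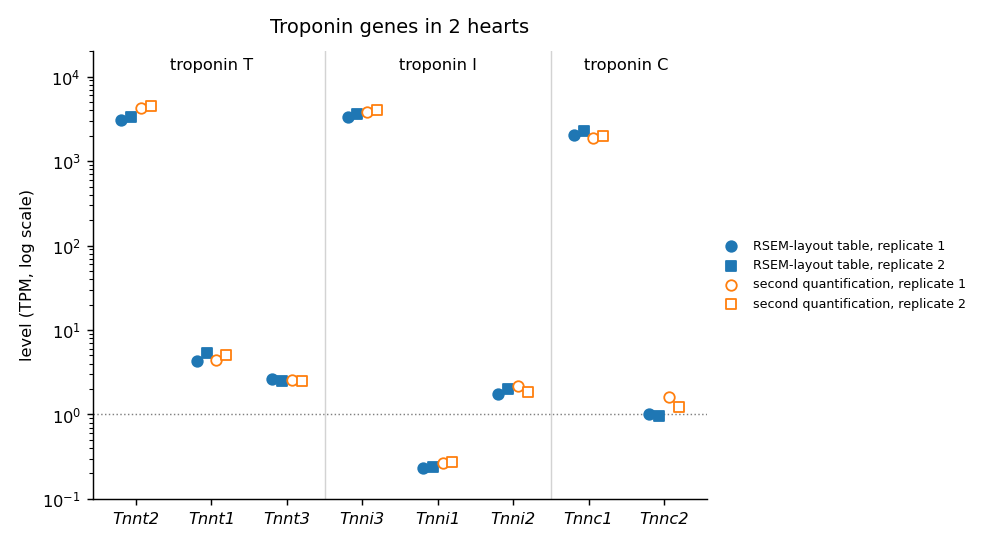
Level of each troponin gene in TPM on a log axis, in the 2 hearts (circles, replicate 1; squares, replicate 2) and in 2 quantifications (filled, RSEM-layout tables; open, second quantification); the dotted line marks 1 TPM. The cardiac genes Tnnt2, Tnni3 and Tnnc1 lie between 1882 and 4491 TPM, and the other 5 genes between 0.23 and 5.29 TPM.

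Tnnt2 transcripts differ by small exons that are spliced in or out of the coding sequence. Among the transcripts with a consensus coding sequence, 3 such cassette exons were found, of 12, 30 and 9 bases, each a whole number of codons. The 30-base exon is the one known to be included in the embryonic heart and skipped in the adult heart. The sequences below are mm10 transcript sequences on the plus strand from GENCODE M21, shown because the transcripts differ in these bases. Capitals mark the exon and lower case the 15 coding bases on each side, and in the skipped form capitals mark the 3 bases on each side of the junction. In Tnnt2-207 the lower case before the 30-base exon ends with the 12-base exon, which that transcript includes.
Tnnt2 exon of 12 bases, chr1:135842015-135842026, in Tnnt2-212: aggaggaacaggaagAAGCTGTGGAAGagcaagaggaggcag
Tnnt2 exon of 30 bases, chr1:135843785-135843814, in Tnnt2-207: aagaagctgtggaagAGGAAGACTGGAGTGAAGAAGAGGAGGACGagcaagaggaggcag
Tnnt2 without both exons, in Tnnt2-211: aggaggaacaggAAGAGCaagaggaggcag
Tnnt2 exon of 9 bases, chr1:135850379-135850387, in Tnnt2-211: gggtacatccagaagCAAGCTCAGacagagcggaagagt

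The 30-base exon was mostly skipped in both hearts. Transcripts that include it held 11.3% and 11.7% of the TPM of all transcripts spanning it in replicates 1 and 2. In the second quantification, a separate estimate deposited for the same libraries, these shares were 6.41% and 14.1%, so the replicates lay further apart there. The 9-base exon was mostly included, at 88.1% and 87.8%, against 91.1% and 88.8% in the second quantification. Every annotated transcript that spans the 9-base exon and lacks it, Tnnt2-205 and Tnnt2-207 among them, includes the 30-base exon. Inclusion of the 9-base exon and skipping of the 30-base exon are therefore not independent results. For both exons the quantifications differed by at most 4.92 percentage points within a library. For the 30-base exon the totals came from different transcripts. In the RSEM-layout tables inclusion lay mainly on Tnnt2-205, at 10.1% and 10.5% of the gene. In the other estimate the largest share lay on Tnnt2-207 in replicate 1, at 4.01%, and on Tnnt2-204 in replicate 2, at 6.94%, beside 5.22% on Tnnt2-207. Both stood at 0 in the RSEM-layout tables.

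For the 12-base exon the quantifications lay far apart. Its inclusion was 6.38% and 7.08% in the RSEM-layout tables and 62.9% and 47.7% in the second quantification. A further 10.3% and 10.8% of TPM in the RSEM-layout tables lay on Tnnt2-205, whose exons cover 7 of the 12 bases. In the second quantification that share was 1.24% and 1.12%. The estimates were thus 56.5 and 40.6 percentage points apart, beside 0.704 and 15.2 points between the hearts within the first and the second estimate.

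**Figure D2:**
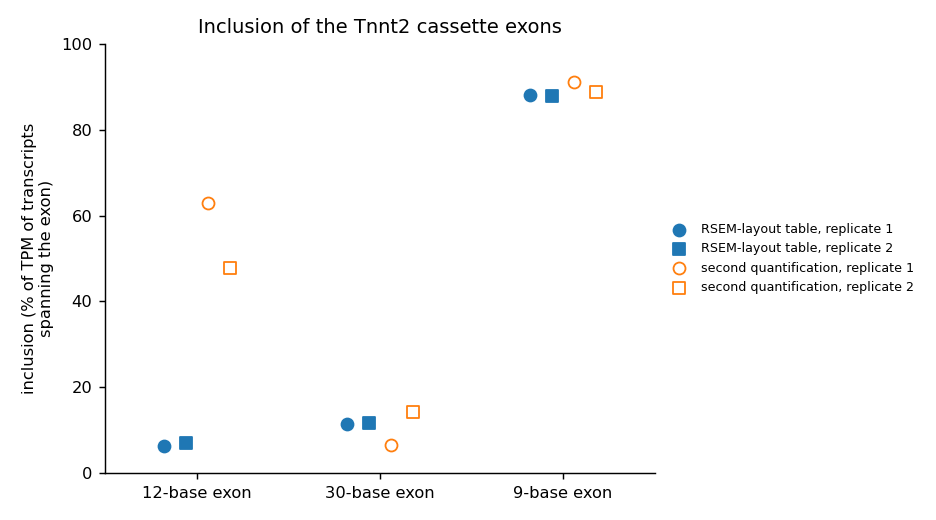
Inclusion of the 3 Tnnt2 cassette exons, as percent of the TPM of transcripts spanning the exon, in replicate 1 (circles) and replicate 2 (squares); filled points are the RSEM-layout tables and open points the second quantification. The 30-base exon lies between 6.41% and 14.1% and the 9-base exon between 87.8% and 91.1%, while the 12-base exon is at 6.38% and 7.08% in one estimate and at 62.9% and 47.7% in the other.

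The same split appears in the shares of whole transcripts. Tnnt2-211, of 1112 bases and 291 codons, lacks the 12- and 30-base exons and held 76.0% and 74.8% of Tnnt2 TPM in the RSEM-layout tables. In the second quantification it held 0.549% and 6.94%. Tnnt2-212, of 1123 bases and 295 codons, has the 12-base exon and held 5.20% and 6.02%, against 57.4% and 41.1% in the second quantification. Tnnt2-214 is a 433-base model whose end is not annotated, and it held 5.77% and 5.54%, against 34.2% and 36.6%. Tnnt2-205 held 1.22% and 1.11% in the second quantification.

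The leading Tnnt2 transcripts share most of their sequence. Of the 1082 31-base words in Tnnt2-211, 1027 also occur in Tnnt2-212, and neither transcript holds a 31-base word found in no other troponin transcript. The remaining 55 words of Tnnt2-211 each occur in a further troponin transcript. In the second quantification Tnnt2-204, which has the 30-base exon, received exactly the estimate of Tnnt2-211, 851 reads in replicate 1 and 11267 in replicate 2. Both are 1112 bases long, but each holds 58 words absent from the other. Of the words of Tnnt2-204, 23 occur in no other troponin transcript. Tnnt2-202 and Tnnt2-206, both of 1076 bases, also received equal estimates there, near 0. Why these estimates are equal was not tested. In the RSEM-layout tables Tnnt2-204 stood at 0 in both libraries. The part of shared sequence in these differences was not tested.

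**Figure D3:**
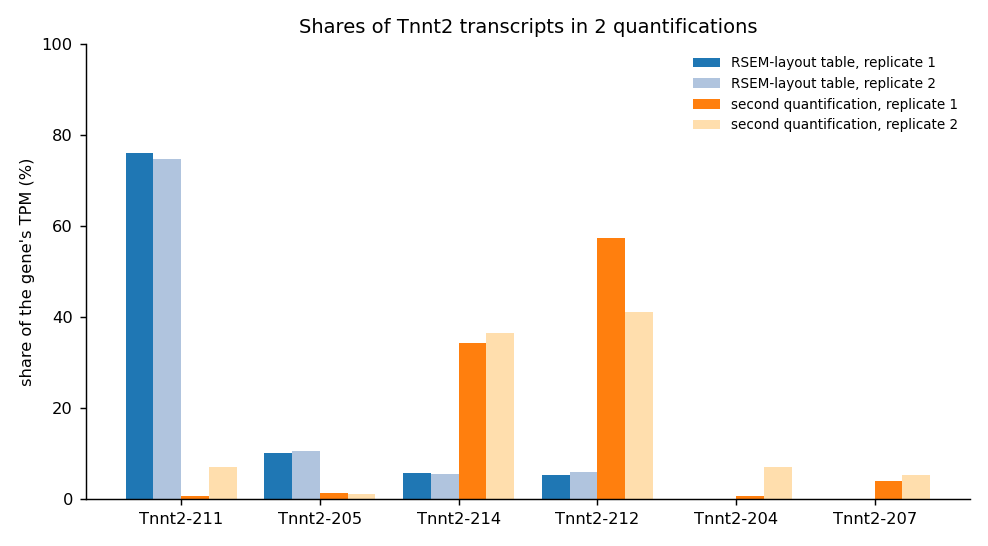
Share of Tnnt2 TPM held by each transcript that reached 5% in any library of either quantification; bars start at 0 and show replicates 1 and 2 of the RSEM-layout tables (blue) and of the second quantification (orange). Tnnt2-211 leads in the first at 76.0% and 74.8%, and Tnnt2-212 in the second at 57.4% and 41.1%.

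The skeletal troponin T genes have cassette exons of their own, and their values rest on few reads. In Tnnt1 a 33-base exon was included at 75.2% and 86.0% of the TPM spanning it, and at 92.1% and 55.2% in the second quantification. In Tnnt3, 2 exons of 41 bases near the 3′ end of the coding sequence replace each other, a choice known to tell fast troponin T isoforms apart. The first was used in 74.3% and 45.4% of the TPM, and the second in 25.7% and 54.6%. With 84 and 75 reads over the whole gene, the 2 hearts gave opposite majorities, and the second quantification gave the first exon 100% and 73.4%. Of the Tnnt1 transcripts, Tnnt1-203 held 21.3% and 50.2% of the TPM, Tnnt1-204 25.8% and 31.7%, Tnnt1-206 23.9% and 14.0%, Tnnt1-213 25.0% and 0%, and Tnnt1-210 was at 0 but held 12.9% and 9.60% in the second quantification. Tnnt3-224 carried the first 41-base exon and Tnnt3-201 the second, and Tnnt3-221, a retained intron at 0 here, held 8.76% of the second quantification in replicate 2. No single Tnnt1 transcript led in both hearts. The exon sequences are printed to show how alike the flanks and how different the exons are, again from mm10 and in transcript orientation.
Tnnt1 exon of 33 bases, chr7:4513581-4513613, minus strand, in Tnnt1-203: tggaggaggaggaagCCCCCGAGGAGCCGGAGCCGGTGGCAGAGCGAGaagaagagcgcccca
Tnnt3 first exon of 41 bases, chr7:142513665-142513705, plus strand, in Tnnt3-224: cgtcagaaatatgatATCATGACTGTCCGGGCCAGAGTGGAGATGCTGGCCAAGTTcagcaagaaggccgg
Tnnt3 second exon of 41 bases, chr7:142514326-142514366, plus strand, in Tnnt3-201: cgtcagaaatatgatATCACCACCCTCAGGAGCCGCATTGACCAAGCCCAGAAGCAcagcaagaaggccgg

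Troponin I was also almost wholly of the cardiac form. Tnni3, the cardiac inhibitory subunit (ENSMUSG00000035458.15, chromosome 7, 4518305 to 4524229, minus strand), had 3289 and 3586 TPM from 64173 and 65663 reads. Tnni2, the fast skeletal gene, had 1.77 and 1.98 TPM from 38 and 41 reads. Tnni1, the slow skeletal gene that serves the heart before birth, had 0.23 and 0.24 TPM from 8 reads in each library, with a 95% Poisson interval of 3.45 to 15.8 reads. It was the lowest of the 8 genes in both libraries and both quantifications. In the family's summed TPM, Tnni3 held 99.94 ± 0.00078%, Tnni2 0.0545 ± 0.00099% and Tnni1 0.0068 ± 0.00021%. The log2 ratio of TPM was 10.84 ± 0.03 for Tnni3 over Tnni2 and 13.84 ± 0.04 for Tnni3 over Tnni1. The last is the widest of the 5 paralog ratios and was lower in expected counts, at 12.99, and with protein-coding transcripts alone, at 12.69. With so few reads, the transcripts of the low genes were not settled. Tnni1 lay wholly on Tnni1-207, but in the second quantification 70.5% and 100% lay on Tnni1-206, and the rest in replicate 1 on Tnni1-204 and Tnni1-209. Tnni2 lay on Tnni2-201 at 96.3% and 100%, against 8.85% and 74.9% in the second quantification. There Tnni2-202 held 65.2% and 0.184% and Tnni2-206 10.9% and 24.9%, while Tnni2-205 held less than Tnni2-202 in both libraries.

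Over 40% of the Tnni3 level lay on a transcript with no annotated coding sequence. Tnni3-202, a 451-base model classed as a retained intron, held 54.0% and 54.8% of Tnni3 TPM, and 48.1% and 51.0% in the second quantification. Tnni3-201, the 912-base transcript of 211 codons, held 45.2% and 44.7%, and 47.7% and 44.7% in the second quantification. In reads the order was the other way round, with 33.8% and 34.5% of the gene's expected counts on Tnni3-202 and 65.5% and 65.0% on Tnni3-201. Tnni3-202 is the shorter of the 2, so each read adds more to its TPM.

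The 2 transcripts share most of the bases of Tnni3-202. Of its 451 bases, 411 lie in the last exons of Tnni3-201, and the other 40 lie at its 5′ end within an intron of Tnni3-201 (chr7:4520528-4520567, minus strand). The RSEM-layout estimates come to 48.1 and 50.2 reads per base of Tnni3-202 and to 46.1 and 46.8 per base of Tnni3-201. Reads over the shared bases cannot be tied to either transcript by sequence, and the tables do not give reads per position. The 40 intron bases are shown in capitals with the first 20 exon bases in lower case.
Tnni3-202 start: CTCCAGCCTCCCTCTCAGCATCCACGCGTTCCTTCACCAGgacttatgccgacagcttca

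**Figure D4:**
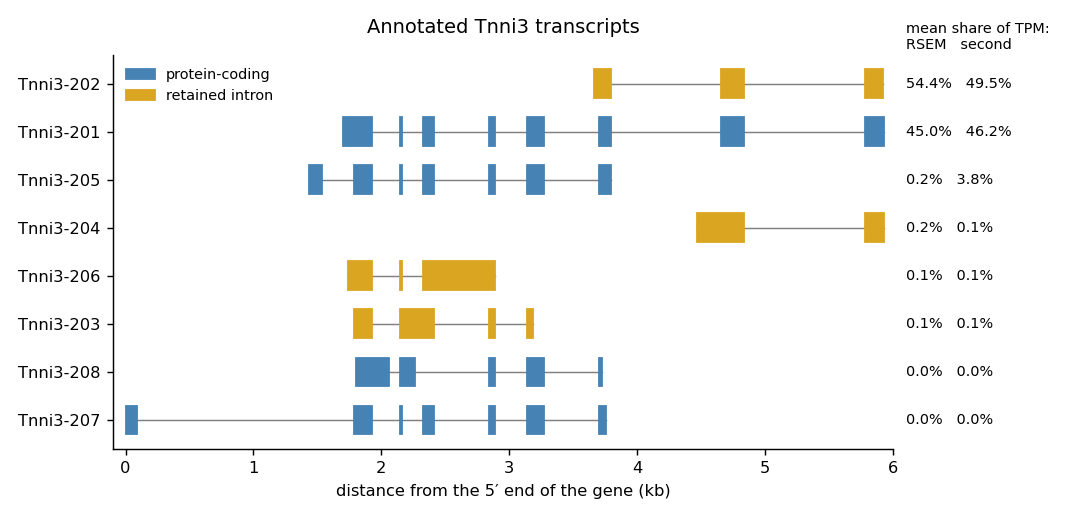
Annotated exons (boxes) of the 8 Tnni3 transcripts by distance from the 5′ end of the gene in kb, coloured by class, with the mean share of Tnni3 TPM in the RSEM-layout tables and in the second quantification at the right. Tnni3-202 (54.4% and 49.5%) covers the 3′ exons of Tnni3-201 (45.0% and 46.2%) and begins inside the intron before them.

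Troponin C was carried by the cardiac and slow gene. Tnnc1 (ENSMUSG00000091898.8, chromosome 14, 31208312 to 31211729, plus strand) had 2040 and 2264 TPM from 44026 and 46121 reads. Tnnc2, the fast skeletal calcium sensor, had 1.01 and 0.96 TPM from 21 and 19 reads. Tnnc1 held 99.95 ± 0.0050% of the family's TPM, at a log2 ratio of 11.09 ± 0.16 to Tnnc2. Its transcripts left little choice: Tnnc1-202, of 161 codons, held 99.4% and 99.6% of the TPM, and 99.6% and 99.7% in the second quantification. Tnnc2 lay wholly on Tnnc2-201 in the RSEM-layout tables. For Tnnc2 the second quantification gave 1.61 and 1.22 TPM, and in replicate 1 it put 35.2% of this on Tnnc2-202, which has no coding sequence. Tnnc2 overlaps Ube2c, a ubiquitin-conjugating enzyme gene on the other strand at 0.93 and 0.56 TPM, and Tnnc1 lies within Nisch, a gene on the other strand at 44.9 TPM in each library. The strand setting used in counting is not given in the sources used here.

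The order of the 3 cardiac subunits on the TPM scale depended on the quantification and on what was summed. At the level of whole genes in the RSEM-layout tables, Tnni3 stood above Tnnt2 by a log2 ratio of 0.09 in replicate 1 and 0.10 in replicate 2, although the ranges of the genes overlapped across the hearts. The second quantification put it below Tnnt2, at -0.17 and -0.15. In the RSEM-layout tables Tnnc1 stood below both, with a log2 ratio of -0.58 ± 0.03 to Tnnt2. With protein-coding transcripts alone, Tnnt2 had 3040 and 3261 TPM, Tnnc1 2028 and 2255 TPM and Tnni3 1499 and 1608 TPM. Tnni3 then had the lowest value of the 3 in both hearts, at a log2 ratio of -1.02 to Tnnt2 (SD 0.00027) and -0.46 ± 0.04 to Tnnc1. This order rests on the split of Tnni3 reads between Tnni3-201 and Tnni3-202, and any reads of Tnni3-201 assigned to Tnni3-202 would make the protein-coding value too low. In the second quantification the protein-coding levels were 4235 and 4424 TPM for Tnnt2, 1966 and 1965 TPM for Tnni3, and 1875 and 1960 TPM for Tnnc1. Tnnt2 was the highest of the 3 there, and the log2 ratio of Tnni3 over Tnnc1 was 0.04 ± 0.05, within the spread of the hearts. Of the Tnnt2 level in the second quantification, 1472 and 1642 TPM lay on Tnnt2-214, the model whose end is not annotated. This part also enters the whole-gene ratios of -0.17 and -0.15. Complete protein-coding transcripts gave 2761 and 2781 TPM for Tnnt2 there, 1875 and 1960 TPM for Tnnc1 and 1824 and 1807 TPM for Tnni3.

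**Figure D5:**
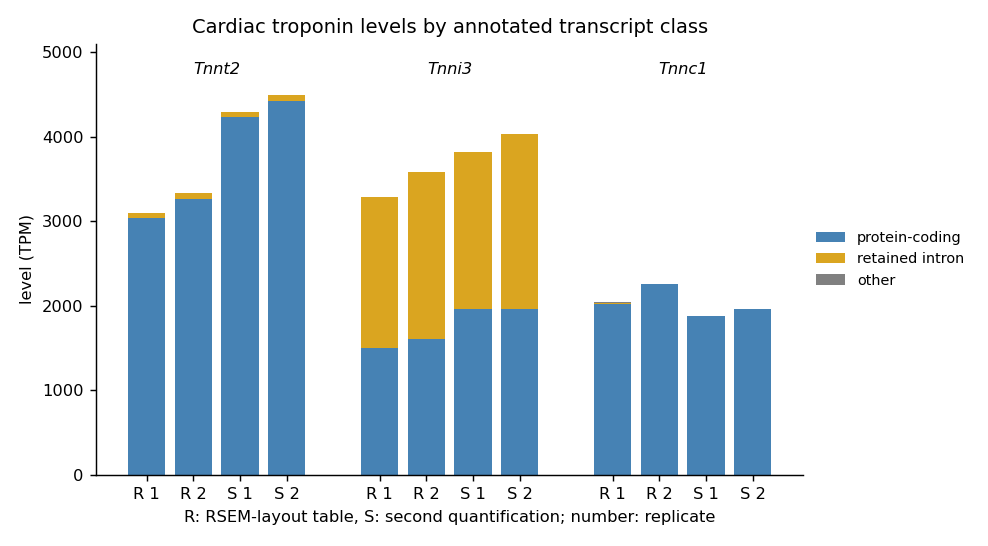
TPM of Tnnt2, Tnni3 and Tnnc1 stacked by annotated transcript class (blue, protein-coding; yellow, retained intron; grey, other), for replicates 1 and 2 in the RSEM-layout tables (R) and the second quantification (S). The retained-intron class makes up 54.4% and 55.2% of Tnni3 in R and 48.6% and 51.3% in S, but at most 2.20% of Tnnt2 and 0.101% of Tnnc1.

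By TPM in the RSEM-layout tables the 5 lower genes ranked Tnnt1, Tnnt3, Tnni2, Tnnc2 and then Tnni1, and the values of neighbours did not overlap across the 2 hearts. These values rest on few reads, 84 and 75 for Tnnt3, 38 and 41 for Tnni2 and 21 and 19 for Tnnc2. In replicate 1 the 95% Poisson interval of Tnnc2 reached up to 32.1 reads, and that of Tnni2 began lower, at 26.9 reads. Whether counting error could change the order was not tested. The order was the same by mean TPM in the second quantification. At 1 TPM or more in both libraries were 6 of the 8 genes, all but Tnni1 and Tnnc2, beside 49.0% of 21938 nuclear protein-coding genes. Among those genes, ranked by mean TPM, Tnni3 was 8th, Tnnt2 10th, Tnnc1 16th, Tnnt1 7246th, Tnnt3 9089th, Tnni2 9813th, Tnnc2 11056th and Tnni1 12996th.

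The genes nearest in mean TPM were mixed in kind. Tnni3 lay between Tpm1, the tropomyosin to which troponin binds, and the hemoglobin gene Hbb-bs. Tnnt2 lay between Hbb-bs and Atp5b, a subunit of the mitochondrial ATP synthase, and Tnnc1 between the hemoglobin gene Hba-a2 and the glycolytic enzyme gene Gapdh. The hemoglobin genes differed widely between the hearts (Hbb-bs, 4229 and 2272 TPM), whereas Tpm1 had 3268 and 3632 TPM. The neighbours were Sap30 and Hsd17b7 for Tnnt1, Ncbp3 and Ubox5 for Tnni2, Smpd5 and Traf3ip3 for Tnni1, and Tmem151a and C77080 for Tnnc2. All of these except Hsd17b7 had the same mean TPM as their member, so other tied genes may lie as near.

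Markers of fast skeletal muscle were detected over a wide range. Of 12 such markers, 7 reached 1 TPM in both libraries, beside 49.0% of 21938 nuclear protein-coding genes, so the count says little. None was at 0 in both, and the list summed to 30.9 and 33.4 TPM. The highest were Myl1, a myosin light chain at 14.5 and 14.4 TPM, Mybpc2, fast myosin-binding protein C at 5.36 and 6.29 TPM, and the calcium pump gene Atp2a1 at 2.37 and 2.61 TPM. The next were Mylpf, Myh4, Pvalb, Casq1 and Actn3, between 0.84 and 2.36 TPM. The lowest were Myoz1 at 0.51 and 0.54 TPM, Ryr1 at 0.52 and 0.31 TPM, Myh1 at 0.10 and 0.16 TPM and Myh2 at 0.10 TPM in each library. The fast genes Tnnt3, Tnni2 and Tnnc2, at 0.96 to 2.64 TPM, lay inside that range. Of 3 genes listed as slow skeletal markers, Myh7b had 7.64 and 8.00 TPM, Myl6b 1.15 and 1.25 TPM and Mybpc1 0.25 and 0.39 TPM. Whole tissue does not show which cells expressed the listed genes, and expression by heart muscle cells themselves was not examined. Whether skeletal muscle tissue contributed to the levels of Tnnt1, Tnnt3, Tnni2 and Tnnc2 was not tested.

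The troponin I and T genes lie side by side in 3 pairs, each on 1 strand, and the members of a pair had very different levels. On chromosome 7, Tnnt1 and Tnni3 are 1922 bases apart, with 4.80 ± 0.69 TPM for Tnnt1 and 3438 ± 210 TPM for Tnni3. On chromosome 1, Tnni1 and Tnnt2 are 25364 bases apart and pair the lowest of the 8 genes with a cardiac one. Lad1, which lies between them, had 1.74 and 2.06 TPM. The fast genes Tnni2 and Tnnt3 are 54425 bases apart on chromosome 7 and were both low. Lsp1, encoding an actin-binding protein of leukocytes, lies between them and had 14.0 and 12.1 TPM, above both. The noncoding gene Prr33, at 4.66 and 3.77 TPM, overlaps Tnnt3 on the other strand, so reads of the 2 could mix if strand was not used in counting. Beside the pairs, Phlda3 had 4.43 and 3.15 TPM, Ppp1r12c 19.4 and 17.2 TPM and Mrpl23 12.3 and 0.40 TPM, while Syt8, Gm28883 and Gm15873 were listed at 0. The Mrpl23 level was not settled: it rested on 219 and 22.1 expected counts, and the second quantification gave a mean of 37.9 TPM. So in each mixed pair the cardiac gene was high beside a low slow skeletal gene, and no pair had both genes high.

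Sequence sharing between the paralogs was slight. Only 2 31-base words were shared among transcripts of different troponin genes, between Tnnt2, with 7988 words in all, and Tnni1, with 3624. Outside the troponin genes, Tnnc1 shares 60 of its 1037 words with 666 other genes and Tnnt1 28 of its 2306 with 1435 others. The numbers were 12 words for Tnnt2 and 15 for Tnni1, with 620 and 632 other genes. Tnni3 shares 56 of its 2137 words with 1 other gene, while Tnnt3, Tnni2 and Tnnc2 share 0. Dnaaf3, an axonemal dynein assembly factor gene at 0.92 and 0.93 TPM, overlaps Tnni3 on the same strand. Reads of 31 bases or more could therefore be told apart between troponin paralogs at nearly every position, unlike the transcripts within Tnnt2 and Tnni3.

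The 2 hearts were close in their troponin levels. The rule for a difference asked for 200 or more reads over both libraries, a change of 2-fold or more after scaling, and an exact counting interval of the ratio, at an error rate of 0.001, that left out 1. Of 10960 genes with enough reads, 1.08% met this rule, and of the 4 troponin genes among them, Tnnt2, Tnnt1, Tnni3 and Tnnc1, 0 did. At such a share a count of 0 in 4 says little about these genes. With a minimum of 10 reads 2.75% of 17075 genes and 0 of the 8 troponin genes met the rule, and at 1.5-fold 3.53% of 10960 genes and 0 of the 4. The log2 ratio of replicate 2 over replicate 1 was 0.08 for Tnnt2 (counting interval 0.06 to 0.10), 0.09 for Tnni3 (0.06 to 0.11) and 0.12 for Tnnc1 (0.09 to 0.15). All 3 intervals lay above 0, and the values were near the median absolute log2 ratio of all tested genes, 0.11. Tnnt1 had a log2 ratio of 0.33 with an interval of -0.27 to 0.94. The other 4 genes had too few reads for the rule, and their log2 ratios lay between -0.11 and 0.16.

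The ratios between cardiac subunits moved less between the hearts than the levels did. The log2 ratio of Tnni3 over Tnnt2 differed by 0.02 between the libraries, and that of Tnnc1 over Tnnt2 by 0.04, whereas the TPM of the 3 genes was 0.11 to 0.15 higher in replicate 2 on the log2 scale. The log2 ratio to Actc1, cardiac actin, was -1.22 in each library for Tnnc1, -0.53 and -0.56 for Tnni3, and -0.61 and -0.66 for Tnnt2. To Tpm1 it was -0.68 in each library for Tnnc1, 0.01 and -0.02 for Tnni3, and -0.08 and -0.12 for Tnnt2. In the second quantification Tnni3 over Tpm1 was 0.27 and 0.29. TPM has a fixed sum, so fewer reads of other abundant RNAs raise it. The erythroid markers, led by the hemoglobins, summed to 11661 TPM in replicate 1 and 6319 TPM in replicate 2. All mouse genes together summed to 996682 and 996508 TPM. In scaled read counts the log2 ratios of replicate 2 over replicate 1 were 0.08 for Tnnt2, 0.09 for Tnni3 and 0.12 for Tnnc1. The part of the erythroid markers in the difference was not tested.

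Most listed genes that act with or on troponin reached 1 TPM in both libraries, beside 49.0% of 21938 nuclear protein-coding genes. All 12 thin filament partners reached 1 TPM in both libraries, led by Actc1 at 4742 and 5286 TPM and Tpm1, followed by the filament nucleator gene Lmod2 at 318 and 280 TPM and skeletal actin Acta1 at 182 and 206 TPM. Of 18 kinases and phosphatases known to act on troponin I or T, 16 did so, with Ppp1cb, a catalytic subunit of protein phosphatase 1, at 146 and 153 TPM and Prkaca, the catalytic subunit of protein kinase A that phosphorylates cardiac troponin I, at 125 and 134 TPM. Pak1 and Pak3 were the 2 below 1 TPM. None of these genes met the rule for a difference between the hearts, nor did any splicing regulator or transcription factor below. In the 4 lists 12, 15, 11 and 10 genes were tested. Over all 10960 tested genes 1.08% met the rule, so a count of 0 in these lists says little.

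Of 12 regulators of Tnnt2 splicing, 11 reached 1 TPM in both libraries, beside the same 49.0% of nuclear protein-coding genes. Qk had 176 and 192 TPM, Mbnl1, whose protein promotes skipping of the embryonic exon, 86.5 and 90.8 TPM, Mbnl2 90.6 and 83.0 TPM and Rbm20 81.0 and 90.7 TPM. Celf1, whose protein promotes its inclusion, had 26.7 and 30.5 TPM and Celf2 22.4 and 21.2 TPM. Mbnl3 was below 1 TPM, at 0.57 and 0.28 TPM. The part of these regulators in the skipping of the exon was not tested. Of 13 transcription factors known to bind troponin gene promoters, 10 reached that level, led by Tead1 at 66.4 and 65.9 TPM, Mef2a at 49.3 and 52.5 TPM and Gata4 at 42.8 and 50.9 TPM. The skeletal muscle factors Myod1 and Myog had 0.05 and 0.02 TPM in replicate 1 and 0 in replicate 2. The medians of the 4 lists, as means of the 2 libraries, were 61.1, 14.6, 32.5 and 27.7 TPM for partners, kinases and phosphatases, splicing regulators and transcription factors. Medians over the 21938 nuclear protein-coding genes were 1.06 and 1.00 TPM in replicates 1 and 2. Over the 10751 of them at 1 TPM or more in both, they were 8.18 and 8.30 TPM.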

How the data were processed

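Expected counts, TPM, FPKM and transcript shares in percent are as deposited, in tables with the column layout of RSEM per the file headers. A second transcript table per library, with estimated counts and TPM in the kallisto layout per the file headers, was summed per gene. Per the labels the assembly is mm10, and identifiers follow GENCODE M21 per the deposited file listings. Versions of the authors' tools: not given in the sources used here. From these values, levels, ratios, shares and exon inclusion were computed in Python 3.11.15 (pandas 2.3.3, numpy 2.4.6, scipy 1.17.1) on unfiltered TPM with no pseudocount. FPKM was not used for any result. Expected counts were rounded for the counting intervals (exact 95% Poisson) and for the difference between hearts, scaled with TMM in edgeR 4.0.16 (R 4.3.3) or, as an alternative, with DESeq2 1.42.0 size factors. The rule for differing genes was also run on simulated data, whose spread between libraries was set in advance and not taken from these libraries. The outcome is not given here, and such a run does not show how often the rule errs in these data. The tables hold no molecular identifiers. The members and gene lists were chosen with earlier results of these data known. Named were all members, transcripts with 5% or more of a gene in any library of either quantification, the genes next to each member in level (those nearest Tnnt3 are not reported here), the genes between or beside the paired troponin I and T genes, and up to 4 genes of each list. Added after their values were seen were Celf1, Celf2, Mbnl3, Pak1, Pak3, Myod1, Myog, the remaining fast skeletal markers, and Ube2c and Nisch, which overlap Tnnc2 and Tnnc1.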

Additional observations from a re-analysis of the deposited data

How the results depend on the processing

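With 2 libraries of 1 group there is no test, so an alternative is described by whether its value moved past the SD of the 2 libraries. Depth limits Tnni1, Tnnc2 and Tnni2 most, and their transcript shares should be read as a handful of reads. No paired analysis was possible because the series has 1 group. Counting complete protein-coding transcripts, alone or in the second quantification, and protein-coding transcripts in the second quantification were chosen after seeing the data. Leaving out either replicate leaves the other library's value, given per library in the report, and with 2 libraries this cannot move a mean past the SD, so it says nothing about stability.

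The log2 ratio of Tnni3 over Tnnt2 turned negative in the second quantification (-0.16), in expected counts (-0.71), with protein-coding (-1.02) or complete protein-coding transcripts (-0.94), and with these in the second quantification (-1.14 and -0.61). That of Tnni3 over Tnnc1 turned negative with protein-coding (-0.46) or complete protein-coding transcripts (-0.47) and with the last in the second quantification (-0.079), and otherwise gave 1.03 in the second quantification, 0.53 in expected counts and 0.036 with protein-coding transcripts of the second quantification. Tnnc1 over Tnnt2 stayed negative, at -1.19 in the second quantification, -1.24 in expected counts, -0.47 with complete protein-coding transcripts, and -1.17 and -0.53 with protein-coding and complete protein-coding transcripts of the second quantification. Read counts are not scaled to length, which alone shifts these ratios; the cause of the other shifts was not tested.

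The mean cardiac shares stayed between 99.77% and 99.96%. Troponin T gave 99.84% in the second quantification, 99.803% in expected counts and 99.801% with complete protein-coding transcripts. Troponin I gave 99.94%, 99.93%, 99.87% with protein-coding transcripts and 99.866% with complete ones. Troponin C gave 99.93% in the second quantification. Among log2 paralog ratios, the second quantification gave 9.87 for Tnnt2 over Tnnt1, 10.77 for Tnnt2 over Tnnt3, 10.95 for Tnni3 over Tnni2 and 10.43 for Tnnc1 over Tnnc2. Expected counts gave 9.68 for Tnnt2 over Tnnt1, 12.99 for Tnni3 over Tnni1 and 10.68 for Tnni3 over Tnni2, and protein-coding transcripts 12.69 and 9.72 for the last 2 pairs. A pseudocount of 1 TPM gave 9.12, 9.81, 11.44, 10.22 and 10.08 for the 5 pairs in the order T, I, C.

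The share of Tnnt2-211 was 3.74% in the second quantification, 77.9% in expected counts and 76.9% among protein-coding transcripts. That of Tnni3-202 was 49.5% and 34.1% in the first 2 of these, and Tnnc1-202 was 100% of protein-coding Tnnc1. Inclusion of the 12-base Tnnt2 exon was 55.3% in the second quantification, of the 30-base exon 10.2% there and 12.6% in expected counts, and of the 9-base exon 89.96% and 87.3%. The 118 genes differing between the hearts became 470 of 17075 (2.75%) with a minimum of 10 summed counts, and 387 of 10960 (3.53%) at 1.5-fold. Of 8 and 4 troponin genes tested, 0 were among them, which at these shares says little.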
